A study of Mus musculus with 2 samples.

Results

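The genes of DNA replication (S phase) and of mitosis were followed in single cells of mouse tumours. The set was a fixed list of 42 gene symbols, 19 of replication and 23 of mitosis, and every row of the count matrices carrying one of these symbols was taken. All 42 were among the 32285 features of both matrices. The list was made from known gene functions, but it was chosen with earlier results of these data known. The 2 groups of genes are given apart throughout.

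The cells came from tumours that the mouse colon adenocarcinoma line MC38 had formed. There are 2 libraries made with a droplet kit that reads the 3' end of each RNA, 1 of a control tumour sample (genotype label Mbtps1 WT) and 1 of a sample labelled Mbtps1 KD. The series text calls the latter SHM and a knockout, and the label is followed here, so the groups are called control and knockdown. How Mbtps1 was reduced, whether the line was 1 clone, the host mice and the number of tumours in each sample are not stated in the labels. The question of the series was what loss of MBTPS1, a protease of the secretory pathway, does to the tumour and to the cells around it. With 1 library per group there was no replicate check and no test. A difference between the libraries cannot be told apart from a difference between 2 tumours or 2 cell preparations.

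A dividing cell first copies its DNA and then separates the copies. Before S phase, CDC6 and CDT1 load the ring of MCM2 to MCM7 onto the origins of replication, and cyclin E with its kinase helps to start the rings, which unwind the DNA ahead of the polymerases. In mitosis, CDK1 with cyclins A and B drives entry, motors and spindle proteins move the chromosomes, and the anaphase-promoting complex with CDC20 ends the process by destroying the cyclins. Replication genes are classic targets of E2F factors, and many mitosis genes are repressed in resting cells by the DREAM complex and switched on later by MYBL2 and FOXM1, through a CCAAT box and a site named the cell cycle homology element. In a tumour these genes mark the cells that are cycling, and cycling immune cells carry them too.

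The promoters show how the 2 groups of genes differ in sequence. RefSeq promoter windows on GRCm38.p6, 250 bases before to 50 after a gene's start, were found for 35 of the 42 members, 16 of replication and 19 of mitosis. Those of Ccne2, Mcm4, Gins2, Aurkb, Tpx2, Ccna2 and Dlgap5 were not matched. The windows were searched on both strands. The CCAAT box reads ATTGG when it lies on the strand opposite to the gene. The core of the cell cycle homology element was taken as TTTGAA, which on the opposite strand reads TTCAAA. The E2F site was searched in 2 forms, TTTGGCGC and TTTCCCGC. Neighbouring CCAAT matches on opposite strands can overlap.

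An E2F match was present in 7 of 16 replication promoters (43.75%) and in 0 of 19 mitosis promoters, against 1.80% of the windows of all 27025 genes in the table. The cell cycle homology core was present in 14 of 19 mitosis promoters (73.7%), in 2 of 16 replication promoters (12.5%) and in 20.2% of all. CCAAT was present in 16 of 19 mitosis promoters (84.2%), 10 of 16 replication promoters (62.5%) and 41.1% of all. Both CCAAT and the homology core were held by 13 mitosis members (68.4%), by 1 replication member, Mcm2, and by 8.97% of all genes. Median GC content was 57.8% for replication, 60.7% for mitosis and 52.75% for all. A match describes the letters only and is no evidence of binding.

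3 replication promoters are shown for their E2F matches and 4 mitosis promoters for the other pair of sites. Top2a and Cdc20 are among the latter because they had the highest and the lowest ratio between the libraries of all mitosis members. Each run goes 5′ to 3′ on the strand of its gene, is cut to the bases around the matches before the start, and has the matches in capitals. The positions on GRCm38.p6 are chr1:128359706-128359830, minus strand for Mcm6, chr8:75109345-75109506, plus strand for Mcm5, and chr11:98907998-98908035, plus strand for Cdc6. They are chr11:99024192-99024431, minus strand for Top2a, chr4:118437344-118437411, minus strand for Cdc20, chr9:70421556-70421736, minus strand for Ccnb2, and chr19:37376322-37376381, plus strand for Kif11.
Mcm6: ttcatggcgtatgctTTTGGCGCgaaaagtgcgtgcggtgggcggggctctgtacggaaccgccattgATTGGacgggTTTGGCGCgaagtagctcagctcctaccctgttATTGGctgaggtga
Mcm5: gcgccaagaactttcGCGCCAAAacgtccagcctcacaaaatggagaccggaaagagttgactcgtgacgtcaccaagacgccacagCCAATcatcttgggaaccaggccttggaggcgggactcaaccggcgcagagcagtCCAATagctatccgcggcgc
Cdc6: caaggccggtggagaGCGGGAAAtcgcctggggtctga
Top2a: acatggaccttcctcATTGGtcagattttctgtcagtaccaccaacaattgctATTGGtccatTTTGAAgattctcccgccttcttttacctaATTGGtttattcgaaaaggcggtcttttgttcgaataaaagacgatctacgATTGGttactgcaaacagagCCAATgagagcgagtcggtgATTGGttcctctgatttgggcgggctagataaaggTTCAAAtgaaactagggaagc
Cdc20: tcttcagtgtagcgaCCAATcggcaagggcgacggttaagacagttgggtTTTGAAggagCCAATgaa
Ccnb2: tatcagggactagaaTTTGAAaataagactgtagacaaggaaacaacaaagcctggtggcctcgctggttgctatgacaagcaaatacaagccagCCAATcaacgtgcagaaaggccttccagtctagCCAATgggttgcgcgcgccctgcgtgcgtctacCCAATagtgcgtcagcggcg
Kif11: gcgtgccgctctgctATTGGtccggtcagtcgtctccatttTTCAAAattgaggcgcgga
In Mcm6, 2 E2F matches alternate with 2 CCAAT matches, and in Mcm5 the E2F match lies farthest from the start. Cdc6 has 1 E2F match here and no CCAAT. Top2a has 6 CCAAT and 2 homology core matches, and Cdc20 has 2 and 1. In Cdc20 the homology core (18 bases before the start) lies between the CCAAT matches.

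The knockdown library had shallower cells, which touches every value below. It held 174190399 UMIs (molecule tags that count each captured RNA once) and 15529 kept cells with a median of 5080 UMIs, and the control library held 177399315 UMIs and 11003 kept cells with a median of 8207. Barcodes shared by the kept cells of both libraries numbered 44. Cells were clustered and named by marker genes, and 4 classes had at least 200 cells in both libraries. These were tumour-like (4449 control and 7358 knockdown cells, median 21582 and 13292 UMIs), macrophage/monocyte-like (4774 and 5055), T-like (528 and 1678) and NK-like cells (268 and 458). In tumour-like cells 11 of 12 fixed tumour markers had at least 1 UMI over the class in both libraries, with Peg10 at 0. That count does not part the classes, because macrophage/monocyte-like cells had UMIs of all 12. The summed levels differed, at 1786 and 1255 CPM in tumour-like against 95.6 and 103 CPM in macrophage/monocyte-like cells. Mbtps1 in tumour-like cells was 28.9 and 12.3 CPM (2983 and 1247 UMIs, ratio 0.425). CPM is a gene's UMIs per 1000000 UMIs of the cell class. Intervals are 95% exact intervals and cover counting error only.

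In tumour-like cells the replication genes together were at 763 CPM in control (78841 UMIs, interval 757 to 768) and 1089 CPM in knockdown (110698 UMIs, 1082 to 1095). The ratio of knockdown over control was 1.43 (1.41 to 1.44). The mitosis genes together were at 1921 CPM in control (198525 UMIs, 1912 to 1929) and 2575 CPM in knockdown (261798 UMIs, 2565 to 2585), a ratio of 1.34 (1.33 to 1.35). Both lists were thus higher in knockdown. The knockdown over control ratio was above 1 for 41 of the 42 members, with an interval above 1 for 40, below 1 for Ccne1, and holding 1 for Cdc20. The median log2 ratio was 0.56 over the 19 replication members and 0.31 over the 23 mitosis members, beside 0.07 over the 15311 features with at least 50 UMIs in these cells. At least 1.5 times higher were 7 of 19 replication members and 3 of 23 mitosis members, against 11.5% of the features tested. No member was at least 1.5 times lower, against 4.2% of features. The mitosis count, 3 of 23, is near its background. All 23 mitosis members had a ratio above 1 over the class as a whole. The share of all features with a ratio above 1 was not counted, here or for the other lists and classes below. Nor was the share with an interval above or below 1, and with this many UMIs a small difference can give such an interval.

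**Figure D1:**
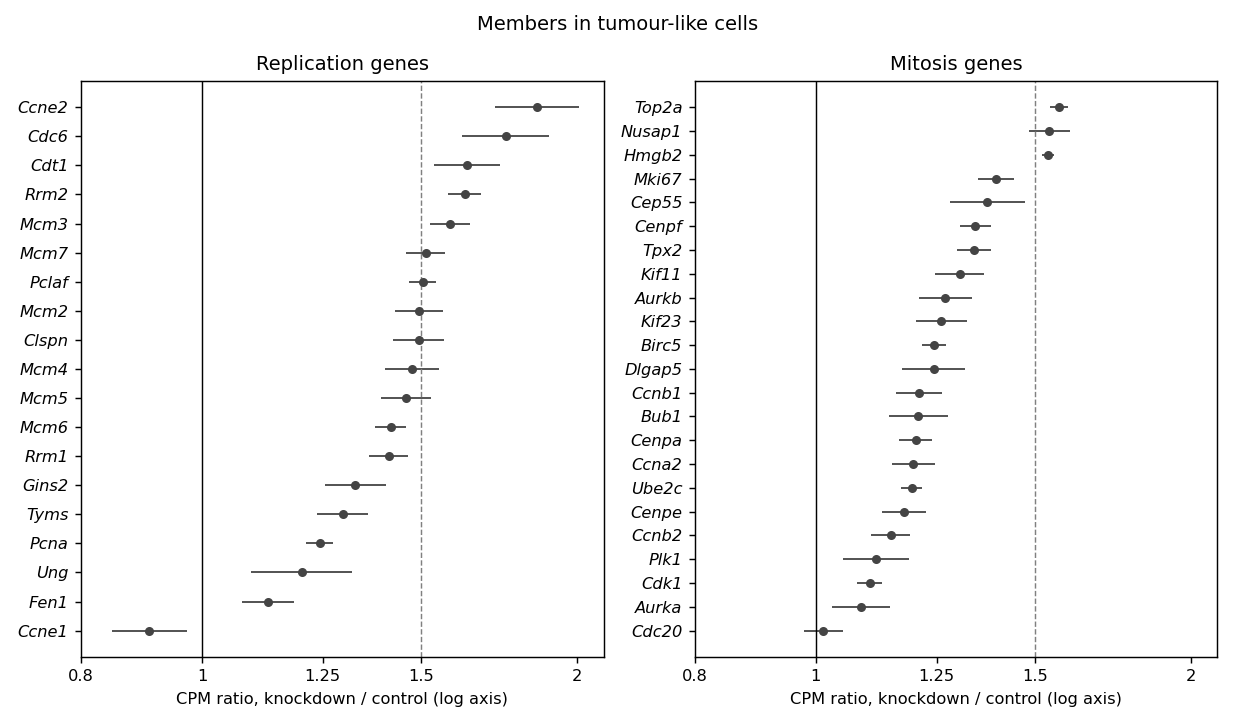
CPM ratio of knockdown over control in tumour-like cells for each replication gene (left) and mitosis gene (right), on a log axis. Points are ratios, bars are 95% exact intervals for counting error, the solid line marks 1 and the dashed line 1.5. Only Ccne1 lies below 1, at 0.907, Cdc20 lies at 1.01, and Ccne2 is highest at 1.86.

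The members that build and load the replicative helicase were all higher in knockdown. The 6 MCM ring genes had ratios from 1.42 to 1.58. Mcm2 was 32.4 CPM in control and 48.4 CPM in knockdown (ratio 1.49, 1.43 to 1.56), and Mcm3 was 44.5 and 70.4 CPM (1.58, 1.52 to 1.64). Mcm4 was 25.5 and 37.6 CPM (1.47, 1.40 to 1.55). The rings' other 3 genes lay close to these. Mcm5 was 29.9 and 43.6 CPM (1.46, 1.39 to 1.53), Mcm6 was 80.1 and 113 CPM (1.42, 1.38 to 1.46), and Mcm7 was 47.9 and 72.4 CPM (1.51, 1.46 to 1.57). The loaders had ratios of 1.75 and 1.63. The interval of Cdt1 overlaps those of Mcm2, Mcm3, Mcm4 and Mcm7, and the interval of Cdc6 overlaps that of Mcm3. Cdc6, which recruits the ring to origins, was 9.24 CPM in control and 16.2 CPM in knockdown (955 and 1646 UMIs, ratio 1.75, 1.62 to 1.90). Cdt1, the loading partner that is destroyed once S phase starts, was 16.9 and 27.6 CPM (1.63, 1.54 to 1.73). Gins2 belongs to the GINS complex that turns the ring into an active helicase, and it was 21.4 and 28.4 CPM (1.33, 1.26 to 1.40), below all the ring genes.

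Genes of the replication fork were spread from 1.13 for Fen1 to 1.504 for Pclaf. Pcna, the sliding clamp of the polymerases, was 113 CPM in control and 140.5 CPM in knockdown (ratio 1.24, 1.21 to 1.27). Pclaf, a clamp-binding factor, was 100.1 and 150.5 CPM (1.504, 1.47 to 1.54). Fen1, the nuclease that trims the ends of lagging strand fragments, was 32.0 and 36.2 CPM (1.13, 1.08 to 1.18), the smallest excess among replication genes. Clspn encodes claspin, which links the fork to the checkpoint kinase, and was 27.99 and 41.8 CPM (1.49, 1.42 to 1.57). Clspn and Mcm2 sit just under the 1.5 mark and Pclaf and Mcm7 just over it, and all 4 have intervals that hold 1.5.

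The supply of DNA building blocks was uneven. Rrm1, the large subunit of ribonucleotide reductase, was 49.6 CPM in control and 70.0 CPM in knockdown (ratio 1.41, 1.36 to 1.46). Its partner Rrm2, the subunit that limits the enzyme in cycling cells, was 67.4 and 109.6 CPM (1.62, 1.58 to 1.67). Tyms, which makes thymidylate, was 30.6 and 39.6 CPM (1.30, 1.24 to 1.36). The repair gene Ung, which removes uracil from DNA, had the fewest UMIs of the list, 823 in control and 973 in knockdown (7.96 and 9.57 CPM, 1.20, 1.09 to 1.32).

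Over all tumour-like cells the 2 cyclin E genes had ratios on opposite sides of 1. Ccne2 (ENSMUSG00000028212, GRCm38 chromosome 4, 11191351 to 11204779, plus strand) was 9.76 CPM in control and 18.1 CPM in knockdown (1009 and 1843 UMIs), a ratio of 1.86 (1.72 to 2.01), the highest of all 42. Ccne1 (ENSMUSG00000002068, chromosome 7, 38097984 to 38107534, minus strand) was 16.5 and 14.96 CPM (1704 and 1521 UMIs), a ratio of 0.907 (0.846 to 0.973), the lowest. The interval of Ccne1 lies below 1 and that of every other replication gene above it. The direction of Ccne1 was not stable: its ratio was 1.28 in cells of 10000 to 20000 UMIs, and over the 7 clusters of tumour-like cells it ran from 0.584 to 1.35, with 1 interval above 1 and 2 below. Ccne2 overlaps Ints8 on the other strand, and whether strand was used in counting is not stated. Mcm7, Gins2, Fen1, Pclaf, Nusap1, Ube2c, Ccna2 and Cdc20 also overlap a gene on the other strand, which makes 9 members in all. On their own strand 0 members overlap another gene. Reads of an overlapping gene could enter these counts only if strand was not used.

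The chromatin genes of the mitosis list had ratios from 1.39 to 1.57. Top2a (ENSMUSG00000020914, chromosome 11, 98992943 to 99024189, minus strand), topoisomerase II alpha, which untangles sister chromatids, was 213 CPM in control and 334 CPM in knockdown (ratio 1.57, 1.54 to 1.60). Hmgb2 (ENSMUSG00000054717, chromosome 8, 57511907 to 57515999, plus strand), a DNA-bending chromatin protein, was 481 and 739 CPM (49744 and 75141 UMIs, 1.54, 1.52 to 1.55). Hmgb2 supplied 25.1% of the mitosis UMIs in control and 28.7% in knockdown, and without it the mitosis sum had a ratio of 1.28 (1.27 to 1.28). Mki67, whose protein coats mitotic chromosomes and is the usual proliferation marker, was 59.6 and 83.1 CPM (1.39, 1.35 to 1.44). All 3 were higher in knockdown by more than the median mitosis member.

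The spindle group was spread from 1.09 to 1.54. Nusap1, which bundles spindle microtubules, was 42.1 CPM in control and 64.9 CPM in knockdown (1.54, 1.48 to 1.60). Tpx2, which seeds microtubules near the chromosomes, was 69.9 and 93.6 CPM (1.34, 1.30 to 1.38), while Aurka, the kinase it activates, was 25.2 and 27.4 CPM (1.09, 1.03 to 1.15). Kif11, the motor that pushes the spindle poles apart, was 32.1 and 41.9 CPM (1.30, 1.246 to 1.37). Dlgap5, a spindle stabiliser, was 20.4 and 25.4 CPM (1.24, 1.17 to 1.32). Thus a kinase and its activator, both of 1 step, differed by unequal amounts.

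Kinetochore genes had ratios from 1.18 to 1.34. The kinetochore is the protein plate on the centromere that the spindle grips. Cenpf was 80.4 CPM in control and 107.9 CPM in knockdown (1.34, 1.30 to 1.38). Cenpe, its motor, was 41.8 and 49.2 CPM (1.18, 1.13 to 1.23), and Cenpa, the histone that defines the centromere, was 77.1 and 92.7 CPM (1.20, 1.17 to 1.24). Bub1, a checkpoint kinase that delays separation until every chromosome is attached, was 23.4 and 28.3 CPM (1.21, 1.14 to 1.28). Of this group Cenpf was the highest, and no interval held 1.

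The chromosomal passenger complex and the machinery of cell division proper had ratios from 1.24 to 1.37. Aurkb, the kinase of the complex, was 27.8 CPM in control and 35.3 CPM in knockdown (1.27, 1.21 to 1.34), and Birc5, or survivin, which anchors it, was 136 and 169 CPM (1.24, 1.22 to 1.27). These 2 partners had ratios whose intervals overlap. Kif23, a motor of the midzone between the separating chromosomes, was 30.4 and 38.3 CPM (1.26, 1.20 to 1.32). Cep55, which recruits the final cutting machinery, was 13.9 and 19.1 CPM (1.37, 1.28 to 1.47).

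The kinases, cyclins and degradation factors that drive entry into and exit from mitosis had ratios from 1.01 to 1.21. Cdk1 was 139.8 CPM in control and 154 CPM in knockdown (1.10, 1.08 to 1.13). Its cyclins had ratios of 1.20 (1.15 to 1.246) for Ccna2, 1.21 (1.16 to 1.26) for Ccnb1 and 1.15 (1.11 to 1.19) for Ccnb2. Plk1, a kinase of mitotic entry, was 19.3 and 21.6 CPM (1.12, 1.05 to 1.19). The 2 genes of the exit step follow. Ube2c, the conjugating enzyme that works with the anaphase-promoting complex, was 195 and 233 CPM (1.19, 1.17 to 1.22). Cdc20 (ENSMUSG00000006398, chromosome 4, 118432901 to 118437352, minus strand), the activator of that complex, was 58.3 and 59.2 CPM (6031 and 6014 UMIs), a ratio of 1.01 (0.978 to 1.05) that does not differ from 1 beyond counting error.

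Within each list the promoter sites did not part the ratios cleanly. The 7 replication members with an E2F match had ratios from 1.42 for Mcm6 to 1.75 for Cdc6 (median 1.51), and the 9 without one had ratios from 0.907 for Ccne1 to 1.62 for Rrm2 (median 1.30), so the ranges overlapped. The 14 mitosis members with the cell cycle homology core ran from 1.01 for Cdc20 to 1.57 for Top2a (median 1.23), and the 5 without it from 1.18 for Cenpe to 1.54 for Nusap1 (median 1.21). The promoters printed for Top2a and Cdc20 thus hold the same pair of sites, at opposite ends of the mitosis list. These are descriptions of the members matched, with no test.

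The remaining genes of the pathway mostly had ratios of the same direction. The shares of all features tested, for reference, were again 11.5% at least 1.5 times higher and 4.2% at least 1.5 times lower. Of 59 other replication genes, 58 had a ratio above 1 and 13 were at least 1.5 times higher (median log2 ratio 0.45). Lig1, the ligase that seals lagging strand fragments, was highest at 41.4 CPM in control and 75.9 CPM in knockdown (1.83, 1.77 to 1.90). Gins4, a partner of Gins2, was lowest at 21.9 and 21.2 CPM (0.966, 0.911 to 1.03), and the abundant Dut and Rpa3 had ratios of 1.22 and 1.15. Of 70 other mitosis genes, 68 had a ratio above 1, 7 were at least 1.5 times higher and 1 at least 1.5 times lower (median 0.36). Anln, a scaffold of the contractile ring, was highest at 61.8 and 100.4 CPM (1.63, 1.58 to 1.68), Cks1b and Cks2 were at 1.12 and 1.09, and the lowest, Psrc1, rested on 39 and 24 UMIs (0.626, 0.360 to 1.07). Of 38 regulators of the cycle, 31 had a ratio above 1, 3 were at least 1.5 times higher and 1 at least 1.5 times lower (median 0.26). Ccnd1, cyclin D1, was 299 CPM in control and 590 CPM in knockdown (1.97, 1.94 to 1.997), while its kinase gene Cdk4 was 258 and 249.8 CPM (0.968, 0.951 to 0.985). Cdkn1c, an inhibitor of these kinases, was 4.77 and 2.37 CPM (0.497, 0.424 to 0.581). The counts for the other mitosis genes and the regulators are no larger than the share of all features. The upstream and the downstream genes therefore did not differ by 1 common factor.

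To compare cells at equal depth, every cell was thinned to 2000 UMIs and counted as positive with at least 3 UMIs of a list. This left out 64 of 4449 control and 807 of 7358 knockdown tumour-like cells. Replication-positive cells were 17.8% of the control (782 of 4385 cells, Clopper-Pearson interval 16.7 to 18.999) and 31.5% of the knockdown tumour-like cells (2065 of 6551, 30.4 to 32.7). Mitosis-positive cells were 31.3% (29.9 to 32.7) and 48.65% (47.4 to 49.9), and cells positive for both lists 12.4% (11.4 to 13.4) and 23.02% (22.0 to 24.1). Among positive cells the mean was 8.32 mitosis UMIs in control and 8.19 in knockdown, and 4.46 and 4.61 replication UMIs. Cells below the threshold had a mean of 0.508 and 0.731 mitosis UMIs and of 0.565 and 0.785 replication UMIs. At a stricter threshold of 8 replication UMIs the shares were 1.07% and 2.40%. A mean among positive cells is bounded by the threshold, so these values do not separate more cycling cells from more RNA per cell. Without thinning, 75.2% and 77.6% of cells had at least 3 mitosis UMIs and 73.7% and 71.9% at least 3 replication UMIs, so the unthinned shares do not show the same difference.

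Positive cells were deeper before thinning, with a median of 28639 UMIs against 19038 for other control cells and 16324 against 12226 in knockdown. A positive call is a range and not a cell type: 542 control and 1164 knockdown cells lay at the mitosis threshold or 1 UMI below it. Fibroblast-like cells, thinned alike, were mitosis-positive in 5.37% of 149 control and 5.56% of 144 knockdown cells, at median depths of 7950 and 4486 UMIs. Neutrophils, which do not divide, gave too few cells of that depth (7 and 6). Thinned to 500 UMIs, they had at least 1 replication UMI in 8.33% (2.76 to 18.4) and 21.2% (15.7 to 27.7) of cells, against 23.7% and 35.1% of tumour-like cells. For mitosis at 500 UMIs they had 36.7% and 44.6% against 33.3% and 50.9%, so at that depth a mitosis UMI does not tell the 2 classes apart. RNA free in the suspension, estimated below, was 14.3% and 38.3% of the neutrophils' UMIs and 3.14% and 5.76% of those of tumour-like cells. The source of the neutrophils' mitosis UMIs was not tested. Hmgb2 was 63.3% and 47.0% of the neutrophils' mitosis UMIs.

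**Figure D2:**
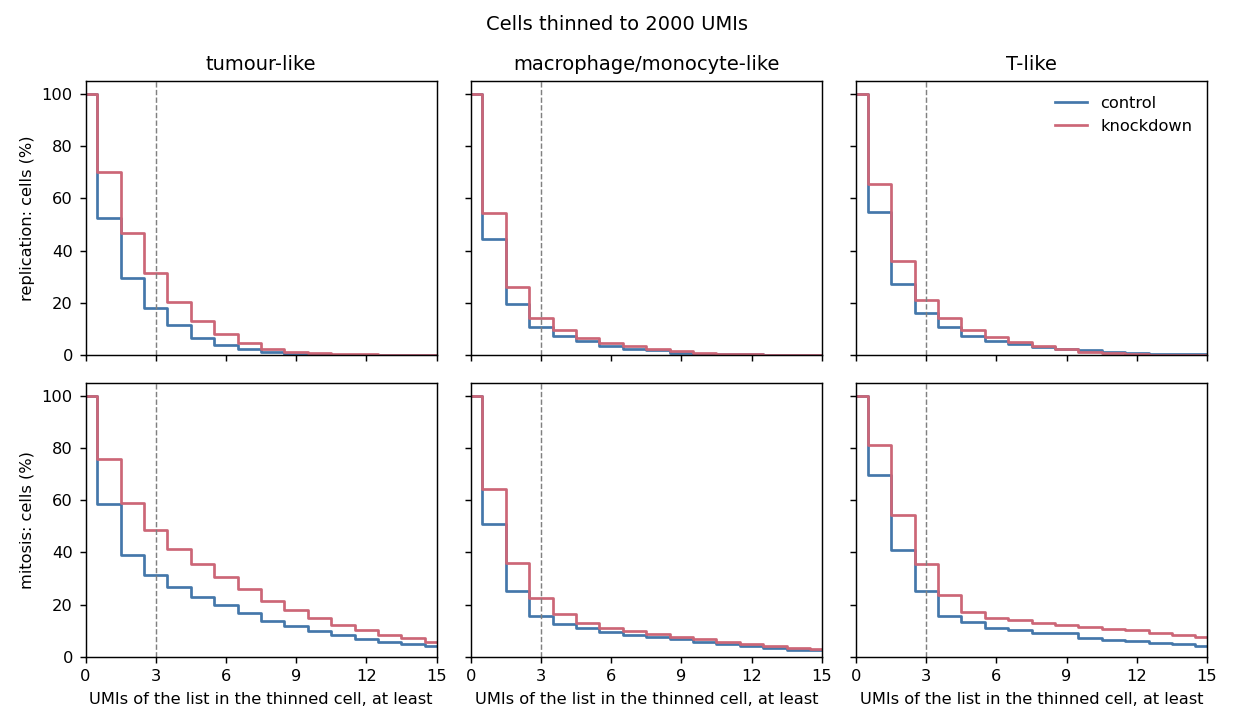
Share of cells (%, vertical) with at least the number of UMIs of the list on the horizontal axis, after thinning each cell to 2000 UMIs, for replication (top) and mitosis genes (bottom) in 3 classes. Blue is control, red is knockdown, and the dashed line is the threshold of 3 UMIs. In tumour-like cells the knockdown line lies above at the threshold, 31.5% against 17.8% for replication and 48.65% against 31.3% for mitosis, and the gap is narrower in the other classes.

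The size of the difference varied with depth. Tumour-like cells were split into 4 depth groups of equal size by UMIs within their own library. In the shallowest group replication genes were 380 CPM in control and 786 CPM in knockdown, a ratio of 2.07, and in the deepest they were 1044 and 1302 CPM, a ratio of 1.247. Mitosis genes went from a ratio of 2.096 (789 and 1653 CPM) in the shallowest group to 1.13 (3031 and 3413 CPM) in the deepest. In cells of 10000 to 20000 UMIs in both libraries (1386 and 3268 cells) the ratios were 2.69 (2.63 to 2.76) for replication and 2.75 (2.70 to 2.80) for mitosis. All 4 depth groups had a ratio above 1 for both lists. In the shallowest range, 500 to 2000 UMIs (64 and 807 cells), the replication ratio was 1.04 (0.814 to 1.35), which holds 1, and the mitosis ratio 1.44 (1.19 to 1.75). Above 20000 UMIs (2486 and 1541 cells) they were 1.47 and 1.53. Ranks within a library and ranges of UMIs thus gave different orders, and the part of depth in the result was not tested.

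**Figure D3:**
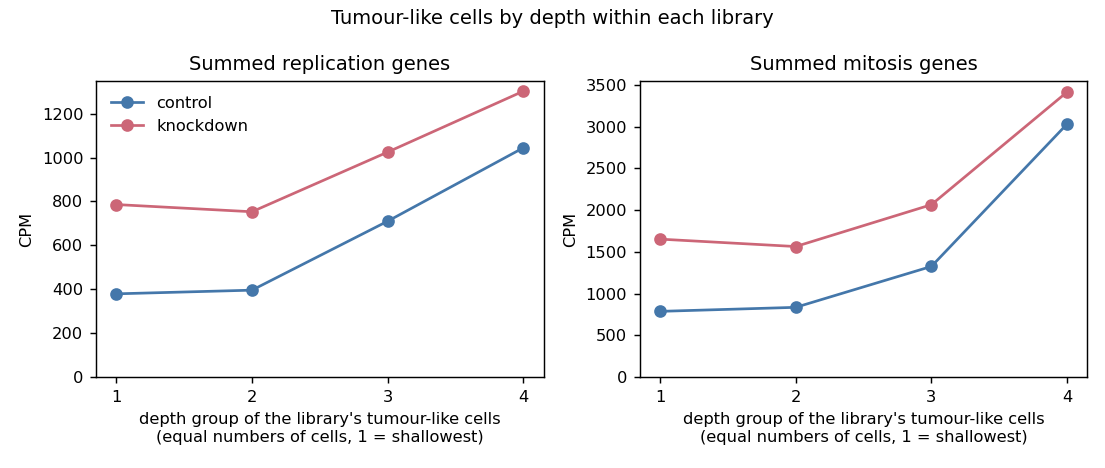
Summed replication (left) and mitosis genes (right) in CPM against the depth group of tumour-like cells by UMIs within each library, from shallowest to deepest. Blue is control and red is knockdown, 1 library each. The knockdown points lie above in every depth group, and the ratio falls from 2.07 to 1.247 for replication and from 2.096 to 1.13 for mitosis.

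Tumour-like cells fell into 7 clusters, which the member genes helped to form. Replication genes had a ratio above 1 in all 7, from 1.01 (0.963 to 1.06) in cluster 8, led by Mfap4, Aspn and Robo2, to 1.41 (1.37 to 1.46) in cluster 10, led by Cxcl1, Ccn1 and Egr1. Mitosis genes ran from 0.926 (0.897 to 0.957) in cluster 19, led by the interferon genes Rsad2 and Ifit1, to 1.35 (1.32 to 1.37) in cluster 10. Of the 23 mitosis members, 9 had a ratio above 1 in cluster 0, 19 in cluster 2 and 12 in cluster 3. In clusters 8, 9, 10 and 19 the numbers above 1 were 10, 18, 21 and 4. Cluster 8 also had the lowest levels, 436 and 441 CPM for replication and 841 and 844 CPM for mitosis. The libraries were spread unequally over the clusters. When all cell cycle genes were left out before clustering, the 2 clusters with the lowest replication levels in control (444 and 549.6 CPM) held 831 and 865 control but 362 and 367 knockdown cells, while the cluster with 1032.5 CPM held 587 control and 1814 knockdown cells. The tumour-like clusters of that clustering had replication ratios from 1.04 to 1.44 and mitosis ratios from 0.905 to 1.36. Giving each of those clusters equal weight, the ratios were 1.23 for replication and 1.11 for mitosis, and the counts of members at least 1.5 times higher went from 7 to 1 and from 3 to 0. This setting was chosen after the data were seen.

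The members differed in how they held up within clusters. Mcm6 had an interval above 1 in all 7 clusters, with ratios from 1.23 to 1.35. Cdt1, Rrm2, Pclaf, Ccne2 and Hmgb2 had one in 6 of 7. At the other end Cdc20 and Cdk1 had intervals below 1 in 4 of 7 clusters, with Cdc20 ratios from 0.702 to 1.06 and Cdk1 ratios from 0.760 to 1.13. Aurka, Bub1, Cenpe and Plk1, like Cdc20, had no interval above 1 in any cluster. The shares of all features with such intervals in each cluster were not counted. Cdc20, whose interval over all tumour-like cells holds 1, was not counted as turning under the equal cluster weights. Of the members with an interval above 1, 8 turned to a ratio below 1 under these weights. Among them were Cdk1 at 0.928, Plk1 at 0.917 and Aurka at 0.906. For these late mitosis genes the direction thus depended on how the tumour clusters were weighted, and for the MCM ring and its loaders it did not.

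**Figure D4:**
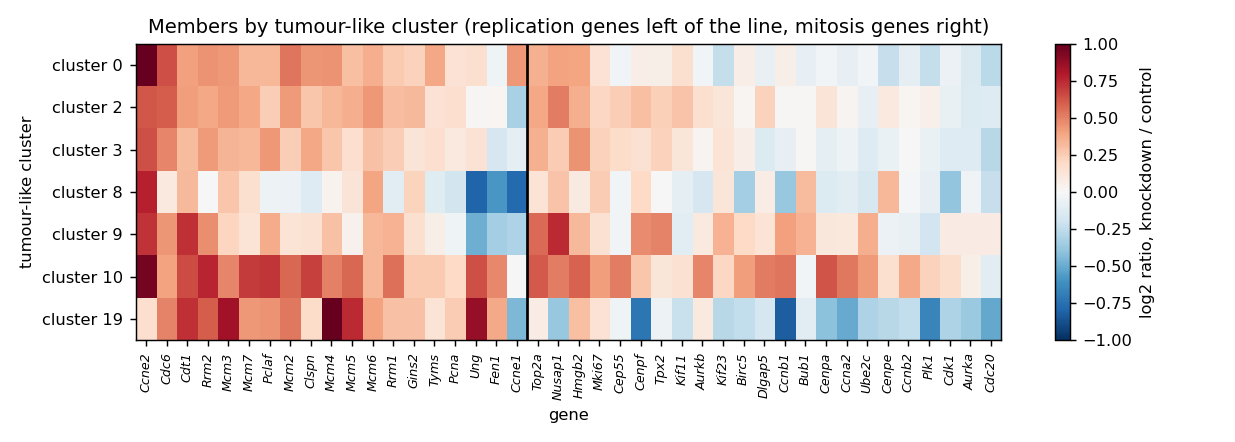
Log2 ratio of knockdown over control for each member (columns, replication genes left of the line and mitosis genes right, each ordered by the ratio over all tumour-like cells) in each of the 7 tumour-like clusters (rows). Red is higher and blue lower in knockdown, and colours end at 1 and -1. Replication columns are mostly red, with Mcm6 from 1.23 to 1.35 as a ratio, and the right edge of the mitosis side is mostly blue.

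In macrophage/monocyte-like cells both lists were higher in knockdown. Replication genes were 584 CPM in control (18005 UMIs) and 723 CPM in knockdown (14997 UMIs), a ratio of 1.24 (1.21 to 1.27). Mitosis genes were 1125 and 1328 CPM, a ratio of 1.18 (1.16 to 1.20). Of the 42 members 41 had a ratio above 1, and 1 of 42, Ccne2, was at least 1.5 times higher, against 6.23% of features. None was at least 1.5 times lower, against 1.72%. In cells of 5000 to 10000 UMIs (2485 and 1404 cells), however, the ratios were 1.86 for replication and 1.93 for mitosis, and 40 of the members were at least 1.5 times higher. The share of all features past the fold was not counted in that range, so the 40 have no background beside them. That range holds the control median of 6048.5 UMIs and lies above the knockdown median of 3695. The tumour-like ratios in that range were 1.81 and 1.62. Ccne2 was 7.46 and 11.8 CPM (230 and 244 UMIs, 1.58, 1.31 to 1.90), so the higher of the cyclin E genes was the same as in tumour-like cells. Ccne1 was 9.95 and 10.95 CPM (1.10, 0.922 to 1.31). Pcna was 136 and 158 CPM (1.17), Pclaf 75.97 and 95.05 CPM (1.251) and Mcm6 43.97 and 56.3 CPM (1.28), and Fen1 was the lowest replication member at 1.03 (0.918 to 1.15). Of mitosis members Top2a was highest at 95.3 and 133 CPM (1.40, 1.33 to 1.48) and Cenpa lowest at 59.0 and 52.9 CPM (0.895, 0.830 to 0.965). Hmgb2 was 372 and 468 CPM (1.26) and Ube2c 79.2 and 87.6 CPM (1.11).

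T-like cells had summed replication levels of 782 CPM in control (1389 UMIs) and 852 CPM in knockdown (3131 UMIs), a ratio of 1.09 (1.02 to 1.16). Their mitosis genes were 1677 and 1943 CPM, a ratio of 1.16 (1.11 to 1.21). Within ranges of depth the ratios were larger. In cells of 500 to 2000, 2000 to 5000 and 5000 to 10000 UMIs they were 1.59, 1.46 and 1.47 for replication and 1.39, 1.52 and 2.16 for mitosis. With at least 50 UMIs, 41 of 42 members could be compared and 4 were at least 1.5 times higher, against 7.68% of features, and 0 at least 1.5 times lower, against 3.8%. Those higher were Ccne2 (9 and 47 UMIs, 2.52, 1.22 to 5.86), Cdc6 (13 and 44 UMIs, 1.64, 0.865 to 3.31), Kif23 (22 and 110 UMIs, 2.42, 1.52 to 4.01) and Nusap1 (71 and 222 UMIs, 1.51, 1.15 to 2.003). Cdc6 and Nusap1 fall outside the rule for named genes and were chosen after their values were seen. The counts behind these are small. Several of the genes with most UMIs were close to 1: Hmgb2 at 778 and 815 CPM (1.05), Pcna at 131 and 142 CPM (1.08), Pclaf at 113 and 124 CPM (1.09) and Cenpa at 128 and 131 CPM (1.02). Top2a, also among those with most UMIs, was not, at 137 and 189 CPM (244 and 694 UMIs, 1.37, 1.19 to 1.60). Mcm6 was 93.5 and 105.9 CPM (1.13). Lowest were Ccne1 (23 and 32 UMIs, 0.672, 0.381 to 1.20) and Cep55 (31 and 61 UMIs, 0.951, 0.608 to 1.52), both with intervals that hold 1.

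Cells with a UMI of Cd8a or Cd8b1 and none of Cd4 (243 control and 841 knockdown) had replication ratios of 1.05 (0.970 to 1.13) and mitosis ratios of 1.17 (1.11 to 1.23). Cells with a UMI of Foxp3, the regulatory T cell factor, numbered 72 and 99 and went the other way, with replication at 881 and 557 CPM (0.632, 0.485 to 0.816) and mitosis at 1954 and 1372 CPM (0.702, 0.594 to 0.828). Thinned alike, however, 26.5% of 49 control and 33.3% of 21 knockdown Foxp3 cells were mitosis-positive. Replication-positive were 12.2% and 4.76% of them (6 and 1 cells), which is the order of the CPM. The lists disagree and the cells are few, so no order is read for the Foxp3 cells. Cells with Cd4 and no Cd8a, Cd8b1 or Foxp3 UMI (47 and 74) had ratios of 1.17 (0.834 to 1.64) and 1.16 (0.927 to 1.46), which hold 1. The difference between these groups of T cells was not tested.

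NK-like cells had lower levels in knockdown, in contrast to the classes above. Replication genes were 906 CPM in control (1366 UMIs) and 798 CPM in knockdown (1075 UMIs), a ratio of 0.880 (0.812 to 0.954), and mitosis genes 1797 and 1508 CPM, a ratio of 0.839 (0.792 to 0.889). Of 32 members with at least 50 UMIs, 7 were at least 1.5 times lower, against 4.33% of features, and 1 was at least 1.5 times higher, against 7.24%. Aurkb (39 and 16 UMIs, 0.459, 0.239 to 0.840) and Mcm5 (88 and 42 UMIs, 0.534, 0.361 to 0.780) were the lowest, and Cdt1 (41 and 67 UMIs, 1.83, 1.22 to 2.77) and Cenpa (134 and 149 UMIs, 1.24, 0.978 to 1.58) the highest of each list. Pcna was 160.5 and 118 CPM (0.735), Pclaf 156 and 129 CPM (0.828), Mcm6 92.2 and 94.2 CPM (1.02), Top2a 188 and 165 CPM (0.874) and Hmgb2 735 and 660.3 CPM (0.898). The level rested on few cells: 11 of 268 control and 25 of 458 knockdown cells held 50% of the mitosis UMIs. With every cell at equal weight the ratios were 1.002 and 1.10, and in cells of 5000 to 10000 UMIs 1.63 and 1.63, so the direction in NK-like cells turned with the weighting.

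**Figure D5:**
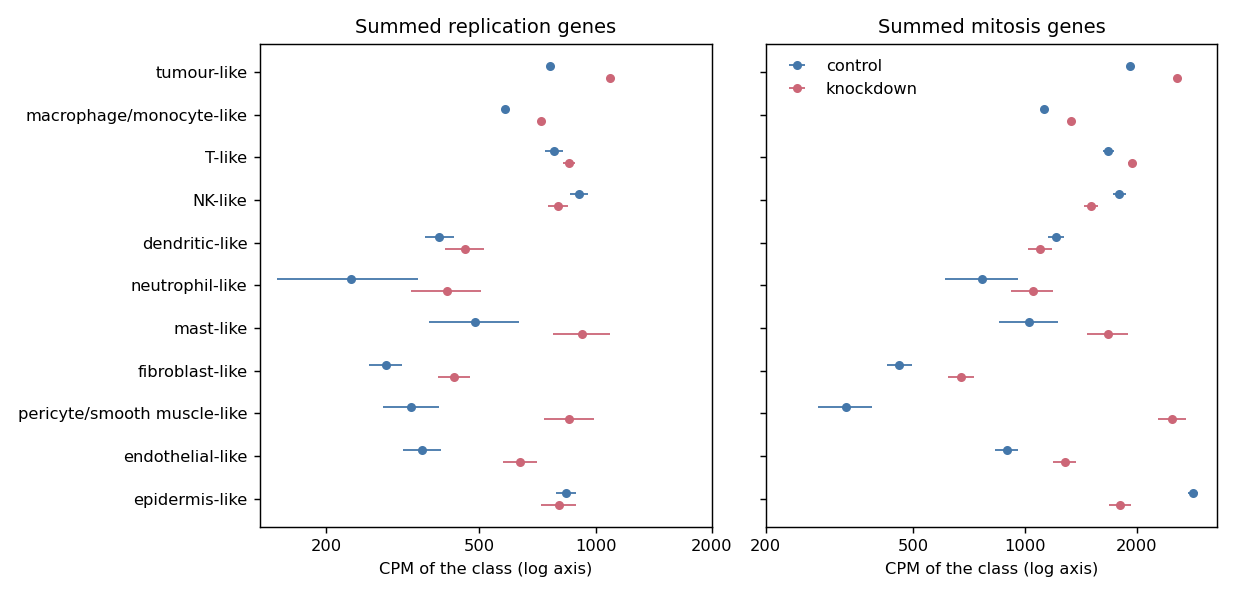
Summed replication genes (left) and mitosis genes (right) in CPM on a log axis, by cell class. Blue is control and red is knockdown, 1 library each, and bars are 95% exact Poisson intervals for counting error. Knockdown lies above control in tumour-like, macrophage/monocyte-like and T-like cells, with replication at 1089 against 763 CPM in tumour-like cells, and below in NK-like cells, at 798 against 906 CPM.

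Thinned shares of positive cells were higher in knockdown among macrophage/monocyte-like cells, at 10.8% (9.94 to 11.8) and 14.1% (13.1 to 15.2) for replication and 15.7% and 22.4% for mitosis. Their unthinned shares were 30.2% and 26.6% for replication and 36.2% and 35.8% for mitosis. In T-like cells the shares were 16.05% (12.5 to 20.1) and 20.9% (18.1 to 24.0) for replication and 25.3% (20.97 to 29.95) and 35.5% (32.1 to 39.1) for mitosis, against 21.6% and 16.9% and 35.4% and 31.5% unthinned. This left out 148 and 932 T-like cells that were too shallow. Among T-like cells with a Cd8a or Cd8b1 and no Cd4 UMI, 213 control and 561 knockdown cells were deep enough. Their replication shares had the other order, 21.6% (16.3 to 27.7) and 19.8% (16.6 to 23.3), with intervals that overlap. Their mitosis shares were 32.4% and 37.1%. In NK-like cells the mitosis share, 40 of 200 control cells and 28.2% of knockdown cells, went against the CPM, and no order is read from it.

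The other classes had under 200 cells in at least 1 library, and in several a few cells held most UMIs of the lists. Pericyte/smooth muscle-like cells (51 and 43 cells) had mitosis genes at 328 and 2490 CPM, a ratio of 7.58, but 3 knockdown cells held 50% of those 525 UMIs. Endothelial-like cells (112 and 115) had ratios of 1.79 for replication and 1.43 for mitosis, with 50% of the control mitosis UMIs in 2 cells. Fibroblast-like cells (162 and 180) had 1.504 and 1.47, mast-like cells 1.89 and 1.63, and neutrophil-like cells 1.77 and 1.37. In the last of these 24 knockdown cells held 50% of the replication and 38 of the mitosis UMIs. Dendritic-like cells had 1.17 (1.01 to 1.35) for replication and 0.909 (0.831 to 0.993) for mitosis. Epidermis-like cells (220 and 110) had mitosis genes lower in knockdown, at 2839 and 1805 CPM (0.636, 0.588 to 0.687) and 14 of 20 comparable mitosis members at least 1.5 times lower, against 10.7% of features, and 0 higher, against 10.1%, while replication was 839 and 803 CPM (0.957, 0.846 to 1.08).

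RNA free in the suspension carried these genes too and moved with the libraries. Barcodes of 101 to 400 UMIs, which are mostly empty droplets, had replication genes at 789 CPM in control and 970.2 CPM in knockdown and mitosis genes at 1578 and 2046 CPM. Free RNA, estimated from genes of other classes, made up 3.14% of the UMIs of tumour-like cells in control and 5.76% in knockdown. It was 6.32% and 14.8% in macrophage/monocyte-like, 7.16% and 21.5% in T-like, 5.45% and 20.03% in NK-like, 14.3% and 38.3% in neutrophil-like and 9.44% and 49.0% in epidermis-like cells. With the estimated free RNA subtracted, the ratios for replication and mitosis were 1.44 and 1.35 in tumour-like, 1.19 and 1.10 in macrophage/monocyte-like and 1.05 and 1.14 in T-like cells. In neutrophil-like cells they became 0.477 and 0.683, and in dendritic-like cells 0.839 and 0.692. The part of free RNA in the remaining differences was not tested.

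Markers of other cells were read beside these. In tumour-like cells the 14 macrophage markers, all with UMIs in both libraries, summed to 317 CPM in control and 310 CPM in knockdown, and the 12 T cell markers to 5.50 and 12.1 CPM. The tumour markers themselves summed to 1786 and 1255 CPM, and the 8 fibroblast markers to 949 and 639 CPM, with 4 of the 12 and 2 of the 8 higher in knockdown. In macrophage/monocyte-like cells all 12 tumour markers had UMIs and summed to 95.6 and 103 CPM, and in T-like cells they summed to 125 and 168 CPM, with Krt7 and Peg10 at 0. Mitochondrial genes took a median of 2.97% and 2.46% of UMIs in tumour-like cells, and Malat1, a nuclear RNA, 6228 and 5309 CPM. Their part in the result was not tested.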

How the data were processed

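Single-cell RNA of 2 MC38 tumour samples, 1 library per group, was read with a droplet kit for 3' ends. The values are UMI counts of 32285 features per barcode, unfiltered, which the authors deposited as made by Cell Ranger 4 (per the file headers). The sources used here do not name a genome build. Positions came from GENCODE release 21 of mouse on GRCm38, which holds 99.6% of the features by identifier and all 42 members, and promoter windows from RefSeq on GRCm38.p6.

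Barcodes had to hold 500 UMIs and 250 genes or more and no more than 20% of mitochondrial UMIs. Their profile had to differ from that of droplets with at most 100 UMIs. That test used 1000 draws at a false discovery rate of 0.01, and barcodes of at least 3000 UMIs were kept without it. Scrublet, run with an expected doublet rate of 6%, removed 4.29% of control and 5.40% of knockdown barcodes. In both libraries more cells were kept than the labels' protocols say were loaded, for a reason not stated there. Cells were clustered with scanpy 1.11.5 (2000 variable genes, 30 components, 15 neighbours, Leiden at resolution 1). Clusters were named from marker genes, at least 3 at 20 CPM or more and at 25% or more of the highest cluster, with tumour-like clusters below 20 CPM of Xist. These limits were chosen with the data in view, and 97 control and 92 knockdown cells stayed unnamed.

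UMIs were summed per class and library. Ratios carry 95% exact conditional intervals, CPM exact Poisson intervals and shares exact Clopper-Pearson intervals. Only the ratio intervals and the 1.5-fold calls were checked on simulated counts. Those counts were drawn as independent Poisson values, so the check does not cover UMIs held by few cells. Features with at least 50 UMIs over both libraries were compared, and a 1.5-fold difference was counted. All members were named in tumour-like cells. In other classes of at least 200 cells the 3 members of each group with most UMIs and those with the highest and lowest ratio were named, and in the other lists the 2 of highest mean CPM and the extremes by ratio. The members and lists were chosen with earlier results of these data known. Tried alternatives were other cell filters, doublets kept, another seed, clustering without cell cycle genes, equal cell weights, another scaling, free RNA removed, depth ranges, and other folds, UMI minimums and thinning depths. Cells from 1 sample are not replicates, so no p-value was computed.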

Additional observations from a re-analysis of the deposited data

Results flagged for a closer look

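NK-like cells, summed as a class, went against tumour-like cells. Their knockdown over control ratio was 0.88 for the replication sum and 0.839 for the mitosis sum, where tumour-like cells had 1.43 and 1.34. The NK-like direction turned with the weighting: the ratios were 1.002 and 1.10 with every cell at equal weight and 1.63 and 1.63 in cells of 5000 to 10000 UMIs. The difference between the classes was not tested.

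Epidermis-like cells had a ratio of 0.636 for mitosis, opposite to tumour-like cells, and of 0.957 for replication, with an interval of 0.846 to 1.08 that holds 1. The difference between the classes was not tested. They numbered 220 in control and 110 in knockdown, and 4 knockdown cells held 50% of their mitosis UMIs. Free RNA was estimated at 9.44% of their UMIs in control and 49.0% in knockdown.

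Empty droplets, which enter no comparison between cell classes, carried the same genes at a higher level in knockdown, 970.2 CPM of replication and 2046 CPM of mitosis genes, against 789 and 1578 CPM in control.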

How the results depend on the processing

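No paired analysis was possible because each group holds 1 library and the labels give no replicate numbers. Over the summed levels, counts and shares of the 4 larger classes, 167 alternative values were close to the reported ones, 63 moved and 4 turned direction. The close values include share ratios at minimums of 1000 and 2000 UMIs per cell, which could not differ from the reported ones. Thinning to 2000 UMIs already leaves out the shallower cells. In tumour-like cells the replication and mitosis ratios were 1.53 and 1.497 with cells at equal weight, 1.41 and 1.33 scaled without ribosomal and mitochondrial genes, 1.81 and 1.62 in cells of 5000 to 10000 UMIs and 2.69 and 2.75 in cells of 10000 to 20000. The mitosis ratio was 1.35 with doublets kept and 1.35 with free RNA subtracted. Tumour clusters made without cell cycle genes, at equal weight, gave 1.23 and 1.11, a setting chosen after seeing the data. The counts of replication and mitosis members at least 1.5 times higher, 7 and 3, became 12 and 7 at equal cell weight, 14 and 11 at 5000 to 10000 UMIs, 18 and 23 at 10000 to 20000, 15 and 10 at a lower fold, 0 and 0 at a fold of 2 and 1 and 0 at equal cluster weight. In macrophage/monocyte-like cells the ratios were 1.27 and 1.21 with at least 2000 UMIs, 1.19 and 1.10 with free RNA subtracted, 1.86 and 1.93 at 5000 to 10000 UMIs, and 1.37 and 1.51 at 10000 to 20000. The mitosis ratio there was 1.22 at equal cell weight, and the count of 1 member became 40 and 17 in those depth ranges, 14 at the lower fold and 0 at a fold of 2. In T-like cells the ratios were 1.18 and 1.31 with at least 2000 UMIs and 1.47 and 2.16 at 5000 to 10000, with 1.21 for replication at equal cell weight. The T-like count of 4 became 9 with at least 2000 UMIs per cell, 10 at equal cell weight, 18 at 5000 to 10000 UMIs, 16 at the lower fold, 2 at a fold of 2 and 1 with at least 200 UMIs per gene. The NK-like ratios turned to 1.002 and 1.10 at equal cell weight and to 1.63 and 1.63 at 5000 to 10000 UMIs, and mitosis was 0.759 with free RNA subtracted. The NK-like count of 7 lower members became 3 at equal weight, 15 with free RNA subtracted, 0 at 5000 to 10000 UMIs, 17 and 1 at the lower fold and at 2, and 11 and 0 with at least 20 and 200 UMIs. The ratio of knockdown to control replication shares in tumour-like cells, 1.77, became 1.59 at 5000 UMIs and 1.58 and 1.95 with at least 2 and 5 UMIs. In macrophage/monocyte-like cells the replication share ratio was 1.07 at 1000 and 1.61 at 5000 UMIs, and the mitosis one 1.20 at 1000 UMIs and 1.21 with at least 5 UMIs. Of single members, equal cluster weights in tumour-like cells turned Fen1 to 0.993, Cenpe to 0.931, Cdk1 to 0.928, Ccna2 to 0.998, Ccnb1 to 0.948, Plk1 to 0.917, Aurka to 0.906 and Kif11 to 0.981. Ccne1 turned to 1.28 at 10000 to 20000 UMIs and Ube2c to 0.930 in macrophage/monocyte-like cells with free RNA subtracted. At equal cell weight NK-like Hmgb2 turned to 1.05, Tpx2 to 1.19, Birc5 to 1.05 and Cdk1 to 1.21. Counts of members under other settings have no share of all features beside them, which was counted for the reported values only. The cause of these shifts was not tested.

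Depth limits the smaller classes. In T-like and NK-like cells members with under 50 UMIs were not compared, and counting error alone gives T-like Fen1, with 38 and 84 UMIs, an interval of 0.720 to 1.61. Libraries cannot be left out with 1 per group.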
